A study of Mus musculus with 8 samples.

Results

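Chemokines are small secreted proteins that direct the movement of leukocytes, and they are read by receptors coupled to G proteins on the surface of the cells they attract. The 62 genes described here were taken by name from the 35275 genes of the kidney table: every gene called Ccl, Cxcl, Ccr or Cxcr with a number, together with Cx3cl1, Cx3cr1, Xcl1, Xcr1 and the atypical receptors Ackr1 to Ackr4. They comprised 40 ligand genes and 22 receptor genes. The rule reads gene names and no measured values.

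RNA sequencing of messenger RNA captured with poly-T beads was carried out on the left kidney of 8 male mice aged 40 weeks. In 4 mice (called KO here, genotype Ctrp1-/-) C1qtnf1, which encodes the secreted protein CTRP1, was disrupted by the allele C1qtnf1tm1Lex, which lacks the coding part of exon 4 and some of the 3' untranslated region. The other 4 were wild-type littermates (WT) from crosses of heterozygous parents, and each library came from 1 mouse. The allele came from 129S5/Sv embryonic stem cells and had been backcrossed to C57BL/6J over more than 6 generations. It is a germline allele and is not restricted to the kidney. All 8 mice had eaten a high-fat diet (60% of calories) since the age of 6 weeks, so no mouse on ordinary chow entered any comparison. Whole kidney holds tubules, vessels, connective tissue and resident leukocytes together, and in such RNA fewer cells of a type cannot be told apart from less RNA per cell.

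The libraries held 17884140 to 20344859 reads. C1qtnf1 was at 5.27 to 5.55 FPKM in the WT mice and at 0.322 to 0.883 FPKM in the KO mice (FPKM: reads scaled for the length of the gene and the depth of the library), so each library matched its label. Markers of the proximal tubule, the main cell type of the kidney, summed to 3280 FPKM in KO replicate 2 and to 3750 to 4440 FPKM in the other libraries. Most of that sum was Slc34a1 (2910 FPKM in KO replicate 2, 3110 to 3770 in the others). Lrp2, Cubn and Slc5a12 were at 83.5, 23.2 and 38.3 FPKM in KO replicate 2. In the others they were at 188 to 217, 45.5 to 51.4 and 70.2 to 97.2 FPKM. KO replicate 2 stood apart from the other libraries across the transcriptome. Its FPKM summed over all genes to 525275, against 437496 to 450339 in the other libraries, and the part of this in the values below was not tested. After scaling between libraries KO replicate 2 was the highest of the 8 in 30.9% and the lowest in 33.2% of the 13606 genes with a mean of at least 0.5 FPKM. KO replicate 4 did not, at 12.8% highest and 12.4% lowest. Both are given by themselves wherever their values carry a mean.

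In the kidney, chemokines are made by tubule cells, endothelium, stromal cells and resident macrophages. Some are produced all the time and keep leukocytes and progenitor cells in place, such as Cxcl12 and Cx3cl1. Others are induced when cytokine or danger signals activate the transcription factor NF-kappaB (Cxcl1, Cxcl2, Ccl2) or by interferons (Cxcl9, Cxcl10, Cxcl11). Atypical receptors bind chemokines without signalling through G proteins and remove them from the tissue.

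Short stretches of promoter are shown for the induced ligands on which the values below turn. They come from RefSeq promoters on GRCm38.p6 (mm10), which run from 250 bases before to 50 bases after the start of the gene. A loose form of the site bound by NF-kappaB (GGGA, any 4 bases, then CC) and the core of the interferon-stimulated response element (GAAA, any 2 bases, then GAAA) were searched on both strands. Capitals mark the matched letters, and each line reads 5′ to 3′ on the strand of its gene.
Cxcl1, chr5:90891164-90891193, plus strand: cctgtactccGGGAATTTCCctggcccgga
Cxcl2, chr5:90903792-90903821, plus strand: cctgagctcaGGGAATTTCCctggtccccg
Cxcl9, chr5:92328190-92328219, minus strand: tctgagagtaGGGTTTTCCCcaggacgatc
Cxcl10, chr5:92349029-92349058, minus strand: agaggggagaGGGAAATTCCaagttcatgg
Cxcl10, chr5:92348973-92349002, minus strand: cggtttacagGGGACTTCCCtcgggttgcg
Cxcl10, chr5:92349083-92349112, minus strand: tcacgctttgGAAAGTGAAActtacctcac
The first 5 lines are matches to the NF-kappaB letters, the Cxcl9 one on the opposite strand, and the last line is the match to the interferon element. The second Cxcl10 match reads as a match on both strands. The matches shown for Cxcl1 and Cxcl2 are the same 10 letters and overlap a match on the opposite strand 1 base further along. The Cxcl1 match starts 71 bases before the gene, the Cxcl2 match 97 bases, the Cxcl9 match 130 bases and the Cxcl10 matches 159 and 103 bases. The interferon element of Cxcl10 starts 213 bases before the gene. Cxcl1 had a further NF-kappaB match that starts 90 bases before the gene.

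Of the 62 genes, 45 had a promoter in the table, 52 promoters in all. The NF-kappaB letters were in 22 of these 52 (42.3%) and in 20.7% of all 32851 promoters. The interferon letters were in 3 (5.77%), those of Ccl19, Cxcl10 and Cxcl14, and in 3.44% of all promoters. A match describes letters and is not evidence of binding, and these expression data do not measure binding.

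Of the 62 genes, 23 had a mean of at least 0.5 FPKM over the 8 mice, and 18 of these were at or above 0.5 in every mouse. A further 10 reached 0.5 in at least 1 mouse, 6 stayed below it with a mean of at least 0.1, 19 lay between 0 and a mean of 0.1, and 4 (Cxcr1, Ccl26, Ccl19-ps3 and Ccl27b) were at 0 in all mice. Cxcl13, at a mean of 0.53 FPKM, was the last gene above the floor, and Cxcr6, at 0.496, the first below it.

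**Figure D1:**
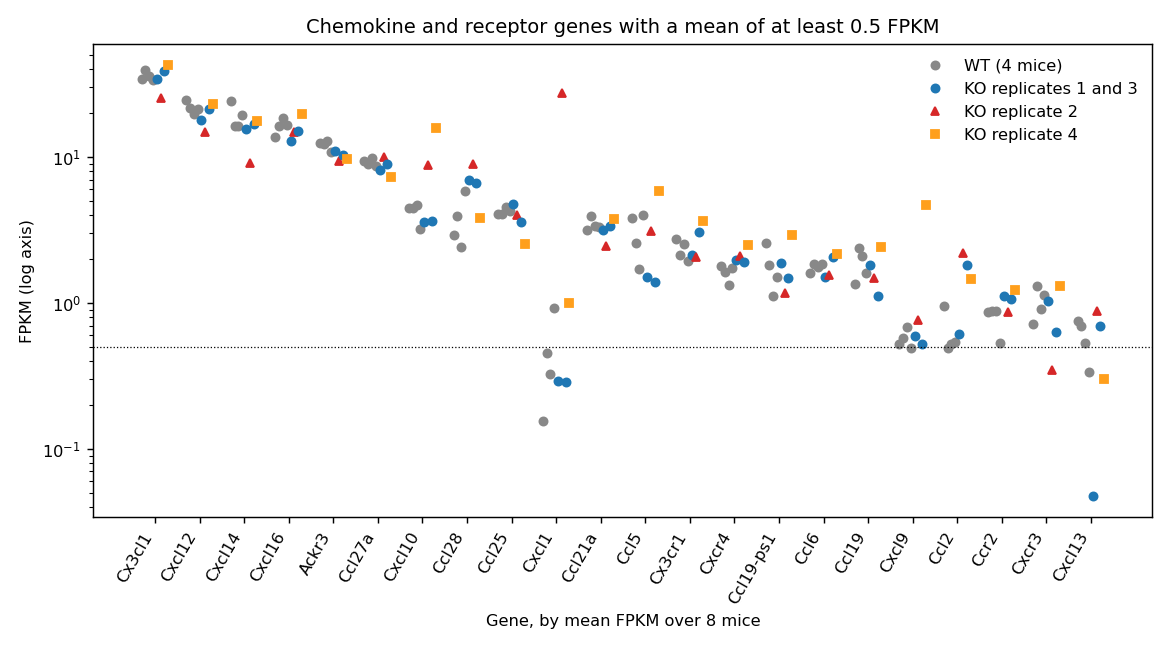
FPKM (log axis) of 22 of the 23 chemokine and receptor genes with a mean of at least 0.5, each point 1 mouse, genes ordered by mean from Cx3cl1 to Cxcl13; the dotted line marks 0.5. Cxcl1 in KO replicate 2 (27.4) and Cxcl9 in KO replicate 4 (4.71) lie far above the other mice. Cxcl10 is highest in KO replicate 4 (15.8), followed by KO replicate 2 (8.84).

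KO and WT kidneys were compared gene by gene with limma on log2(FPKM + 1) over all 13606 genes at that floor, with Benjamini-Hochberg adjustment over all of them. None of the 23 chemokine and receptor genes passed at an adjusted p of 0.05: 0 were higher and 0 lower, where the background over all genes was 0.0147% higher and 0.022% lower. The lowest adjusted p was 0.64 (limma), for Ccl2. By limma, 3 were higher at an unadjusted p under 0.05 (Ccl2, Cxcr4, Ccl28), beside 3.58% of all genes, and 1 was lower (Ackr3), beside 2.56%; together 4 of 23 beside 6.14%. Limma-voom on the reads recovered from the table called 0 of the 23 and had 5 at an unadjusted p under 0.05, beside 6.12% of all genes in that fit. The fold changes were above 0 in 11 genes and below 0 in 12, beside 47.7% of all genes above 0, with a median of -0.03 beside -0.008 for all genes tested. They ran from -0.34 (Cxcl14) to 1.13 (Cxcl1). Cxcl1 reached the floor in the mean, and so was tested, only through KO replicate 2 (27.4 FPKM).

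**Figure D2:**
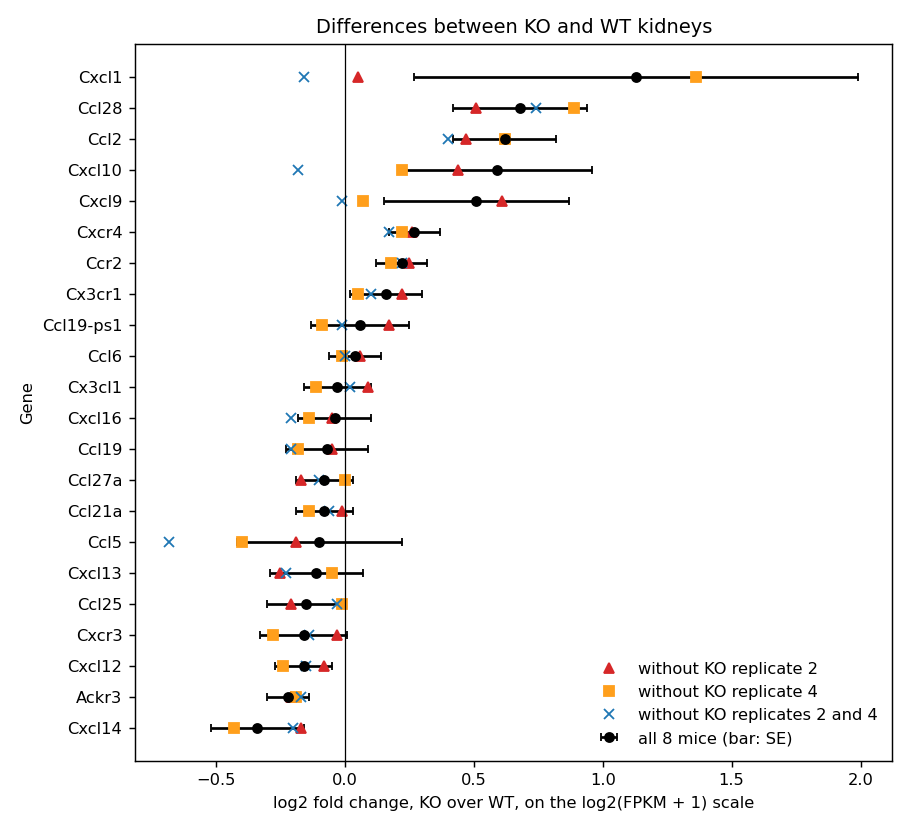
Log2 fold change of KO over WT for 22 of the 23 genes, on the log2(FPKM + 1) scale, with all 8 mice (black, bar: standard error) and without KO replicate 2, KO replicate 4 or both. The values of Cxcl1, Cxcl9 and Cxcl10 move from 1.13, 0.51 and 0.59 to -0.16, -0.01 and -0.18 without both mice, while Ccl28 and Ccl2 stay above 0.

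The CXC ligands that attract neutrophils, mainly through the receptor Cxcr2, lie together on chromosome 5, in the order Cxcl5, Cxcl3, Cxcl15, Cxcl1 and Cxcl2, from 90759360 to 90905938 (mm10). Cxcl1, the main neutrophil chemokine of the mouse, was at 0.155, 0.453, 0.328 and 0.928 FPKM in the 4 WT mice (replicates 1 to 4). It was at 0.293, 27.4, 0.285 and 0.999 FPKM in the 4 KO mice. One KO mouse, replicate 2, thus had 27.5 times the level of the next highest mouse, and the other 3 KO values lay in or just above the WT range. That mouse had 481 reads of the gene and the others 3 to 19. The group means were 0.466 ± 0.332 in WT and 7.25 ± 13.5 in KO (SD, n = 4 each), a log2 fold change of 1.13 ± 0.86 (SE, limma adjusted p = 0.87), and it was 0.05 without KO replicate 2 (limma adjusted p = 0.96).

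Cxcl2, the neighbour of Cxcl1 with the same NF-kappaB letters, was at 0, 0.0512, 0.0494 and 0.14 FPKM in WT and at 0.0531, 1.08, 0 and 0.0951 FPKM in KO. Its mean was below 0.5, so it was not tested. KO replicate 2 was again the highest mouse, 7.74 times the next, with 21 reads against 0 to 3. Cxcl3, named after its values were seen, was at 0.216 FPKM in KO replicate 2 and listed at 0 in the other 7 mice. Cxcl5 and Cxcl15 had a mean under 0.1 FPKM and were at 0 in KO replicate 2. The receptor Cxcr2, which neutrophils carry, was at 0.0342 to 0.113 FPKM in WT and at 0 to 0.0713 in KO, with 0 in KO replicate 2. Cxcr1 was at 0 in all mice.

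**Figure D3:**
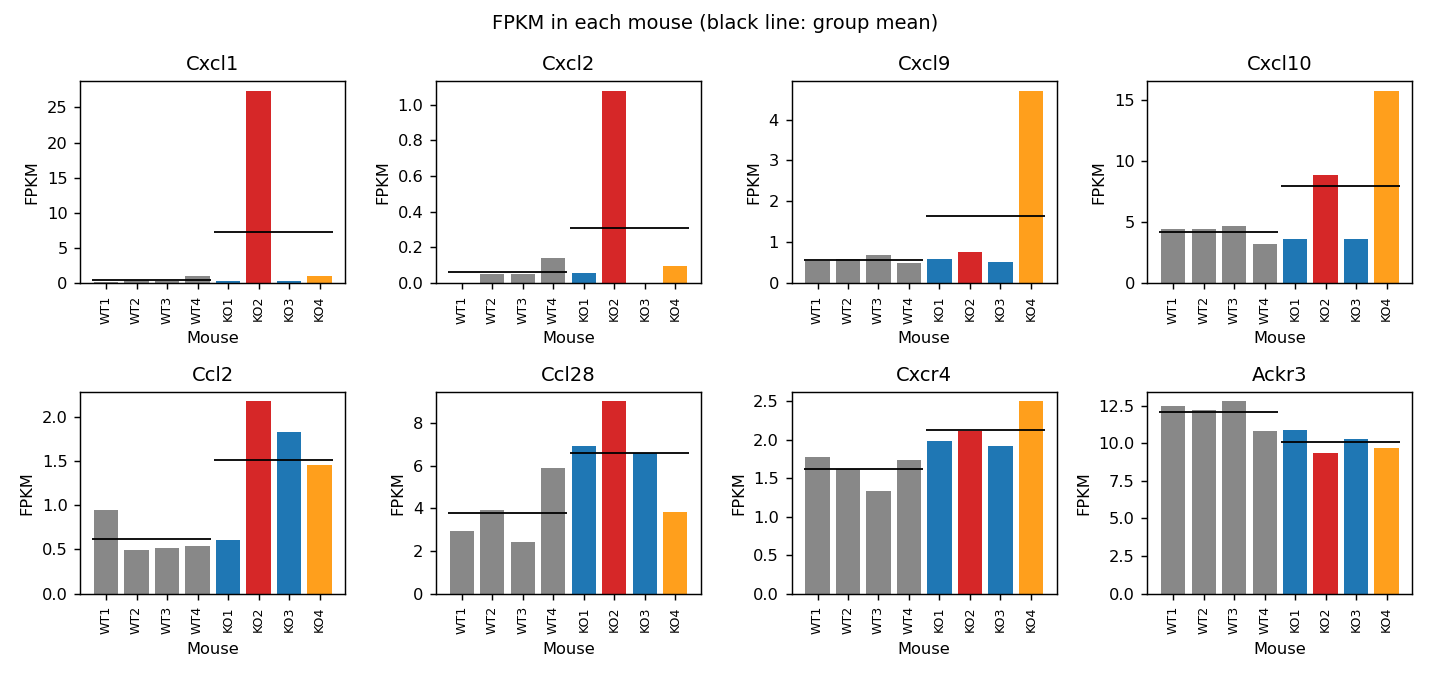
FPKM of 8 genes in each mouse as bars from 0 (grey WT, blue KO replicates 1 and 3, red KO replicate 2, orange KO replicate 4), with a black line at each group mean. Cxcl1 and Cxcl2 are high in KO replicate 2 alone, Cxcl9 in KO replicate 4 alone, whereas the 4 KO bars of Cxcr4 all lie above the 4 WT bars.

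Other genes set KO replicate 2 apart beside these ligands. The summed level of 12 immediate early and heat shock genes was 486 FPKM in that mouse, 135 to 180 in the WT mice and 204 to 228 in the remaining KO mice. Of the 12, 9 were highest there, all of them immediate early genes. The heat shock genes Hspa1b, Hspa1a and Dnajb1 were at 10.8, 5.59 and 23 FPKM in KO replicate 2, the lowest KO values. In KO replicates 1, 3 and 4 they were at 25.8 to 56.7, 9.79 to 20.9 and 33.8 to 41.1 FPKM. In WT they were at 7.24 to 12.7, 2.89 to 5.4 and 21.2 to 30.9 FPKM. In the list of 20 cytokine inducers and NF-kappaB feedback genes it summed to 253 FPKM, against 87.5 to 92.9 in WT and 89 to 136 in KO replicates 1, 3 and 4. Most of that sum was Nfkbia and Cebpb. Of the 20 genes 6 were highest in KO replicate 2 and 6 in KO replicate 4, and Nfkb1 (7.06 FPKM) was lowest in KO replicate 2. Nfkbia, the inhibitor that NF-kappaB induces against itself (named after its values were seen), was at 136 FPKM in KO replicate 2 and at 21.7 to 33 in the other 7. Cebpb, a transcription factor of the acute phase, was at 55.7 FPKM in KO replicate 2. It was at 14.6, 16.6 and 22.7 FPKM in KO replicates 1, 3 and 4 and at 9.51 to 13 in WT. For Cebpb the remaining KO mice thus also lay above every WT mouse. The cytokine genes Tnf and Il6 were at 0.166 and 0 FPKM in KO replicate 2, Il1a was at 0.0551 and Il17a and Ifng were at 0. Il18 (2.17 FPKM) and Il1b (1.24, beside 1.23 in WT replicate 3) were highest in that mouse, and Il33 (1.52) was lowest. The sum of 8 monocyte and neutrophil markers was 5.22 FPKM in that mouse, against 2.01 to 4.54 in the other 7. Among them the neutrophil gene Elane was at 0 in all mice, Ly6g was above 0 in KO replicate 4 alone (0.0532 FPKM) and Mpo in KO replicate 2 alone (0.0395). Csf3r was at 0.515 FPKM in KO replicate 2, at 0.498, 0.842 and 0.576 in KO replicates 1, 3 and 4 and at 0.297 to 0.448 in WT. In KO replicate 2 S100a8 (1.53 FPKM), Ly6c2 (0.548) and Retnlg (0.179) were inside the WT range and S100a9 was the highest of the 8 (2.41). The blood endothelial sum was 39.5 FPKM in that mouse, against 72.8 to 77.9 in the other 7. The part of these differences in the Cxcl1 and Cxcl2 values was not tested.

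Cxcl9, Cxcl10 and Cxcl11 are interferon-induced ligands that attract T and NK cells through Cxcr3, and lie side by side on chromosome 5 from 92321347 to 92365485. Cxcl10 was at 4.46, 4.44, 4.71 and 3.23 FPKM in WT and at 3.58, 8.84, 3.62 and 15.8 FPKM in KO. KO replicates 2 and 4 lay above every WT mouse and the other 2 KO mice inside the WT range. The means were 4.21 ± 0.663 and 7.95 ± 5.76 FPKM (SD, n = 4 each), a log2 fold change of 0.59 ± 0.37 (SE, limma adjusted p = 0.86). KO replicates 1 and 3 alone had a mean of 3.6 FPKM. Cxcl10 shares exon bases with Art3 on the opposite strand, and whether reads were counted by strand is not given in the sources used here.

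Cxcl9 was at 0.526, 0.576, 0.681 and 0.491 FPKM in WT and at 0.597, 0.767, 0.523 and 4.71 FPKM in KO. KO replicate 4 had 6.14 times the level of the next highest mouse, KO replicate 2, and 273 reads against 28 to 41 in the other 7. Its log2 fold change came to 0.51 ± 0.36 (SE, limma adjusted p = 0.86), and 0.07 without KO replicate 4 (limma adjusted p = 0.86). Cxcl11, which the annotation lists as a polymorphic pseudogene, was at 0.039, 0.0285, 0 and 0.0259 FPKM in WT and at 0.0442, 0.129, 0.0858 and 0.119 FPKM in KO. The groups did not overlap, but WT replicate 1 and KO replicate 1 had 3 reads each (0.039 and 0.0442 FPKM). The gene had 7 reads in WT and 27 in KO in all and was too low to test. The share of genes that low without overlap was not computed. Cxcl11 was named after its values were seen, and Gm2673 on the opposite strand shares its exon bases.

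Cxcr3, the receptor of these ligands, was at 0.712, 1.31, 0.902 and 1.14 FPKM in WT and at 1.03, 0.345, 0.627 and 1.3 FPKM in KO. The lowest mouse was KO replicate 2 and the WT and KO ranges overlapped (log2 fold change -0.16 ± 0.17 SE, limma adjusted p = 0.87). Cxcr6, the receptor of Cxcl16 on T and NK cells, was at 0.443, 0.656, 0.522 and 0.701 FPKM in WT and at 0.207, 0.258, 0.573 and 0.609 FPKM in KO. KO replicates 1 and 2 were below every WT mouse and the other 2 inside the WT range.

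KO replicate 4 was the highest of the 8 mice in 11 of the 23 genes (47.8%), beside 12.8% of all genes at that floor on the scaled values. KO replicate 2 was the highest in 5 (21.7%), beside 30.9% of all genes. Both member counts were the same on the deposited and on the scaled values, and the cause was not tested. Some leukocyte marker lists were also highest in KO replicate 4. Its 7 T cell markers summed to 11.3 FPKM, against 3.55 to 8.81 in WT and 4.7 to 5.98 in KO replicates 1 to 3, and 4 of the 7 were highest there. Of the 9 macrophage markers listed, 8 were in the table and 6 of them were highest in KO replicate 4, with a sum of 193 FPKM against 106 to 113 in WT and 99.1 to 136 in KO replicates 1 to 3. The 5 NK cell markers summed to 3.32 FPKM against 1.7 to 2.98 in WT, but only Nkg7 (2.28) and Prf1 (0.463) of the 5 were highest there. B and plasma cell markers (5.66 FPKM, WT 2.84 to 7.89) and monocyte and neutrophil markers (3.25 FPKM, WT 2.15 to 4.54) were inside the WT range. Irf1, a transcription factor of the interferon response named after its values were seen, was at 21.5 FPKM in that mouse and at 6.72 to 11.8 in the other 7. The interferon-gamma gene Ifng was at 0.125 FPKM there and at 0 to 0.0814 in the other 7. The part of these markers in the Cxcl9 and Cxcl10 values was not tested.

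**Figure D4:**
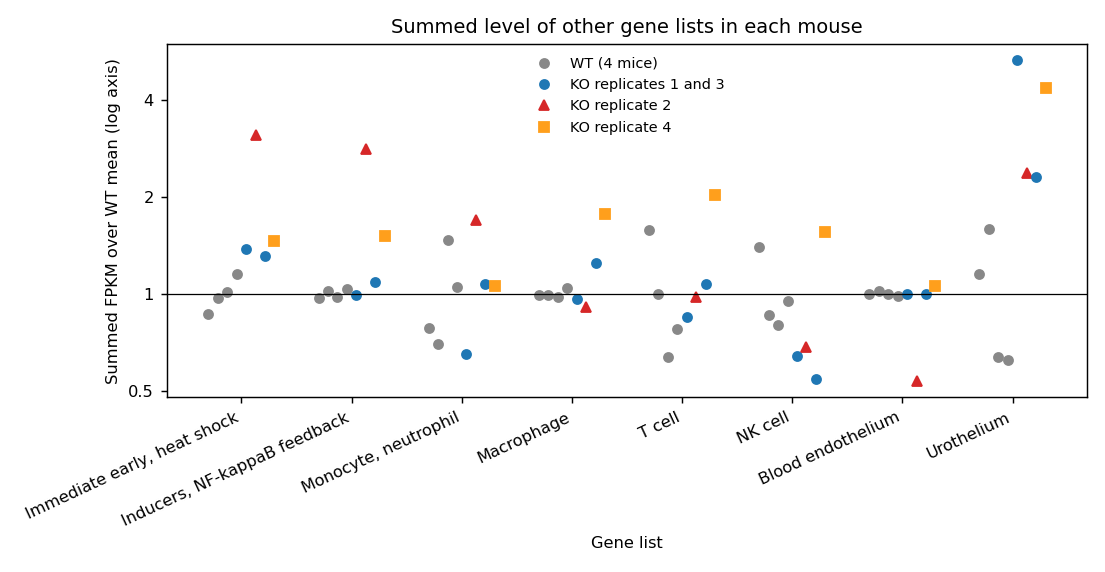
Summed FPKM of 8 other gene lists in each mouse, divided by the WT mean of that list (log axis, line at 1). KO replicate 2 is the highest in the immediate early and heat shock list (486 FPKM) and lowest in blood endothelium (39.5 FPKM), KO replicate 4 is the highest in the macrophage and T cell lists (193 and 11.3 FPKM), and all 4 KO mice lie above WT in the urothelium list.

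The inflammatory CC ligands attract monocytes, T cells, eosinophils and related cells. Most lie in neighbouring clusters on chromosome 11, Ccl2, Ccl7, Ccl11, Ccl12, Ccl8 and Ccl1 from 82035571 to 82305690 and Ccl5, Ccl9, Ccl6, Ccl3 and Ccl4 from 83525778 to 83664683. C1qtnf1 is on the same chromosome, from 118428203. Of the 62 genes, 14 are on chromosome 11, at 17.3 Mb (Ccr10) to 48 Mb (Cxcl16) from C1qtnf1, and 0 lie within 10 Mb of it.

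Ccl2, which brings monocytes out of the blood through Ccr2, was at 0.945, 0.493, 0.522 and 0.538 FPKM in WT. It was at 0.612, 2.18, 1.83 and 1.46 FPKM in KO. KO replicates 2, 3 and 4 lay above every WT mouse, and KO replicate 1 was within the WT range. The means were 0.624 ± 0.214 and 1.52 ± 0.674 FPKM (SD, n = 4 each), a ratio of 2.44, with 10 to 21 reads in each WT mouse and 12 to 44 in each KO mouse. The log2 fold change was 0.62 ± 0.2 (SE, limma unadjusted p = 0.012, adjusted p = 0.64). With any 1 mouse left out it lay between 0.47 and 0.82, with limma adjusted p-values of 0.23 to 0.96.

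The receptor genes Ccr9, Cxcr6, Xcr1, Ccr1, Ccr3 and Ccr2 lie together on chromosome 9, from 123678439 to 124113557. Ccr2, which marks monocytes that come from the blood, was at 0.865, 0.886, 0.883 and 0.532 FPKM in WT and at 1.11, 0.862, 1.06 and 1.23 FPKM in KO. Its values overlapped through KO replicate 2, and the log2 fold change was 0.22 ± 0.1 (SE, limma unadjusted p = 0.052, adjusted p = 0.8). After scaling between libraries the groups no longer overlapped.

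Ccl5, which T cells, NK cells and macrophages make and Ccr1 and Ccr3 bind, was at 3.84, 2.59, 1.71 and 3.97 FPKM in WT and at 1.51, 3.09, 1.38 and 5.85 FPKM in KO. KO replicates 1 and 3 were below every WT mouse and KO replicate 4 above, with a log2 fold change of -0.1 ± 0.32 (SE, limma adjusted p = 0.96) that went to -0.68 without KO replicates 2 and 4 (limma adjusted p = 0.41). Ccl6, a ligand of Ccr1 found in rodents, was at 1.61, 1.84, 1.77 and 1.84 FPKM in WT and at 1.51, 1.55, 2.07 and 2.16 FPKM in KO, with overlapping ranges. Ccr1 had a mean under 0.1 FPKM and ranged from 0.0174 to 0.174 in WT and from 0 to 0.096 in KO.

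Several CC ligands reached 0.5 FPKM in 1 to 4 of the 8 mice but not in the mean, and were not tested. Ccl4 was at 0.0747, 0.654, 0.315 and 0.298 FPKM in WT and at 0.508, 0.906, 0.74 and 0.379 FPKM in KO. Ccl3, its neighbour, was at 1.03, 0.141, 0.136 and 0.321 FPKM in WT and at 0.219, 0.284, 0.283 and 0.327 FPKM in KO. Both attract monocytes and T cells. They overlapped between groups, and the highest mouse differed, KO replicate 2 for Ccl4 and WT replicate 1 for Ccl3.

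Ccl8 was at 0.483, 0, 0.305 and 0.0962 FPKM in WT and at 0.438, 0.532, 0.425 and 1.37 FPKM in KO, with 14 reads in KO replicate 4 and 0 to 5 in the others. Ccl7, which also binds Ccr2, was at 0.123, 0.674, 0 and 0.184 FPKM in WT and at 0.14, 0.204, 0.203 and 0.688 FPKM in KO. Ccl12, the mouse relative of Ccl2, was at 0.0918, 0.101, 0.484 and 0.0915 FPKM in WT and at 0.208, 0.607, 0.303 and 0.56 FPKM in KO. Within this cluster KO replicate 4 was thus the highest for Ccl8 and Ccl7, and KO replicate 2 for Ccl2 and Ccl12. The ranks of Ccl7 and Ccl12 were near ties. Ccl7 had 11 reads in KO replicate 4 and 10 in WT replicate 2, and Ccl12 had 6 reads in KO replicate 2 and 6 in KO replicate 4. Ccl9 was at 0.476, 0.377, 0.329 and 0.54 FPKM in WT and at 0.223, 0.452, 0.361 and 0.617 FPKM in KO, with no separation. Ccl22, the dendritic cell ligand of Ccr4, had a mean of at least 0.1 and ran from 0 to 0.497 FPKM over the 8 mice, with the highest value in KO replicate 4.

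**Figure D5:**
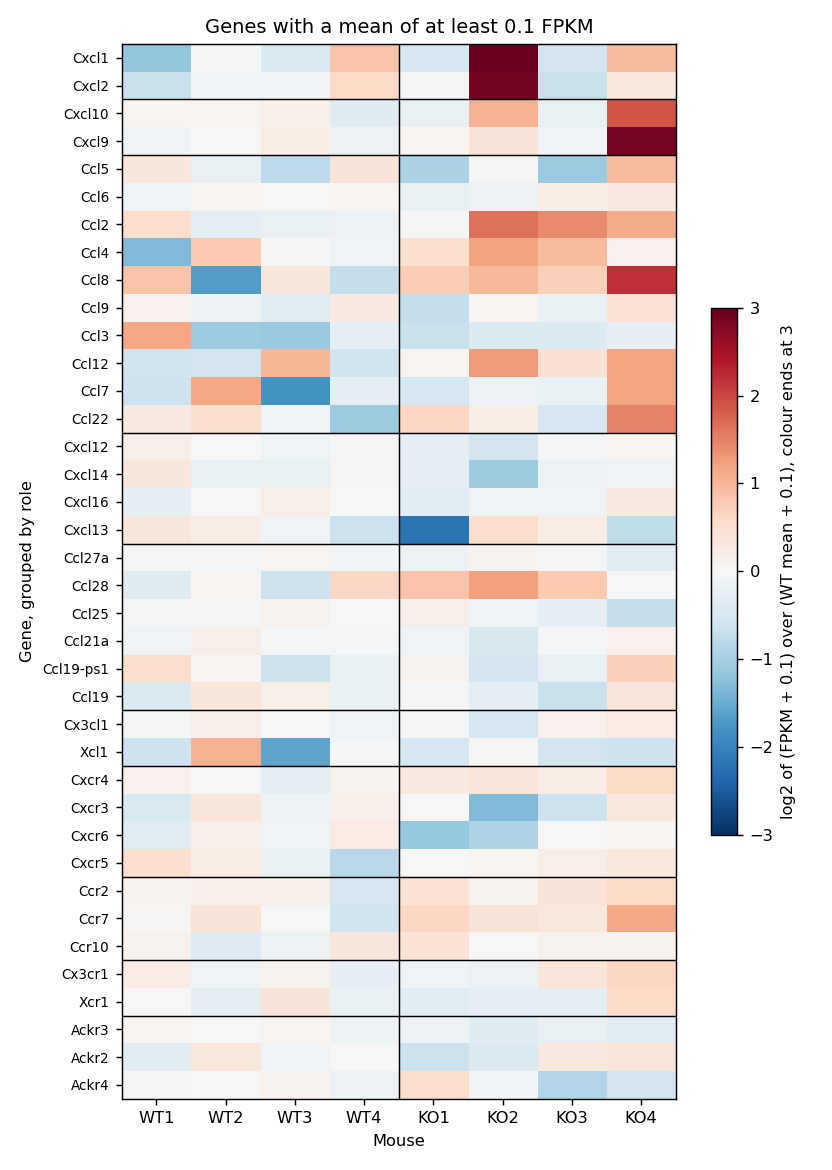
Heat map of 38 of the 39 genes with a mean of at least 0.1 FPKM, grouped by role; colour is log2 of (FPKM + 0.1) over (WT mean + 0.1), ending at 3, with 1 column per mouse. Cxcl1 and Cxcl2 are darkest in KO replicate 2, Cxcl9 and Ccl8 in KO replicate 4, and the rows of Cxcl12, Cxcl16 and Ackr3 are pale.

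The highest means among the ligand genes were those of Cx3cl1, Cxcl12, Cxcl14 and Cxcl16. Whole-kidney RNA does not show which cells made them. Cx3cl1, a membrane-bound ligand that holds macrophages and lymphocytes carrying Cx3cr1, was at 34.4, 39.6, 36 and 33.6 FPKM in WT and at 34.3, 25.2, 39 and 42.3 FPKM in KO. The lowest and the highest mouse were KO replicates 2 and 4, and the groups overlapped (log2 fold change -0.03 ± 0.13 SE, limma adjusted p = 0.97). Cx3cr1, its receptor and a marker of resident macrophages, was at 2.75, 2.13, 2.53 and 1.95 FPKM in WT and at 2.14, 2.07, 3.06 and 3.63 FPKM in KO. KO replicates 3 and 4 were above every WT mouse and the other 2 within the WT range. Macrophage markers had their highest sums in the same 2 mice, 136 and 193 FPKM, and their part in the Cx3cr1 values was not tested. A gene on the opposite strand, Gm33858, shares exon bases with Cx3cr1.

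Cxcl12, the ligand that retains progenitor cells and lymphocytes, was at 24.5, 21.6, 19.8 and 21.4 FPKM in WT and at 18, 14.9, 21.3 and 23 FPKM in KO. The groups overlapped, with KO replicate 2 the lowest (log2 fold change -0.16 ± 0.11 SE, limma adjusted p = 0.86). Its receptor Cxcr4 (chromosome 1, from 128588199) was at 1.78, 1.62, 1.33 and 1.74 FPKM in WT and at 1.98, 2.11, 1.92 and 2.5 FPKM in KO. All 4 KO mice lay above all 4 WT mice, and Cxcr4 was the only one of the 23 genes without overlap on the deposited values. The count was 1 above, beside 2.28% of all genes at that floor, and 0 below, beside 2.9%, or 1 beside 5.18% in either direction. The means were 1.62 ± 0.205 and 2.13 ± 0.258 FPKM (SD, n = 4 each), a ratio of 1.32 and a log2 fold change of 0.27 ± 0.1 (SE, limma unadjusted p = 0.018, adjusted p = 0.69).

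Ackr3 (chromosome 1, from 90203980), the atypical receptor that binds and removes Cxcl12, was at 12.5, 12.2, 12.8 and 10.8 FPKM in WT and at 10.9, 9.38, 10.3 and 9.72 FPKM in KO. Of the KO mice, 3 were below every WT mouse and KO replicate 1 overlapped with WT replicate 4. On values scaled between libraries the 4 KO mice lay below the 4 WT mice, and Ackr3, Cxcr4 and Ccr2 were then the only members of the 23 without overlap, 3 of 23 beside 5.09% of all genes. The means were 12.1 ± 0.878 and 10.1 ± 0.683 FPKM (SD, n = 4 each), a log2 fold change of -0.22 ± 0.08 (SE, limma unadjusted p = 0.024, adjusted p = 0.72). It lay between -0.26 and -0.18 with any 1 mouse left out.

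Cxcl14, an epithelial chemokine, was at 24.2, 16.3, 16.2 and 19.4 FPKM in WT and at 15.6, 9.1, 16.9 and 17.7 FPKM in KO. The lowest mouse was KO replicate 2, without which the log2 fold change went from -0.34 to -0.17. Cxcl16, which exists as a membrane-bound ligand of Cxcr6 and as a scavenger receptor for oxidised lipoprotein, was at 13.7, 16.4, 18.4 and 16.5 FPKM in WT and at 12.8, 14.8, 15.1 and 19.6 FPKM in KO, with overlap. It shares exon bases with Zmynd15 on the opposite strand. Cxcl13, the B cell ligand of Cxcr5, was at 0.757, 0.691, 0.533 and 0.336 FPKM in WT and at 0.0477, 0.881, 0.694 and 0.299 FPKM in KO. KO replicate 1 had 1 read of it and the others 7 to 19. Cxcr5 stayed at 0.122 to 0.454 FPKM over the 8 mice.

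Among the mucosal and skin ligands, Ccl28, which brings antibody-secreting and T cells to epithelia through Ccr10 and Ccr3, lies on chromosome 13 from 119623819 and was at 2.94, 3.93, 2.42 and 5.88 FPKM in WT. It was at 6.9, 9.01, 6.61 and 3.84 FPKM in KO. KO replicates 1, 2 and 3 were above every WT mouse, and KO replicate 4 was inside the WT range. The means were 3.8 ± 1.53 and 6.59 ± 2.12 FPKM (SD, n = 4 each), a ratio of 1.74, with 174 to 447 reads in the WT mice and 286 to 619 in the KO mice. The log2 fold change was 0.68 ± 0.26 (SE, limma unadjusted p = 0.025, adjusted p = 0.73), and 0.89 without KO replicate 4 (limma adjusted p = 0.56).

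Marker lists of other epithelia are given beside these values. The 7 urothelial markers summed to 34.1, 15.2, 14.8 and 27.9 FPKM in the KO mice and to 3.98 to 10.2 in WT. By limma 0 of these 7 passed, with adjusted p-values of 0.17 to 0.78, and 7 had an unadjusted p under 0.05, beside 6.14% of all genes. The 4 collecting duct markers summed to 407, 476, 320 and 449 FPKM in the KO mice and to 250 to 355 in WT, so that KO replicate 3 overlapped with WT. Of these 4, 0 passed by limma, with 1 at an unadjusted p under 0.05, beside the same 6.14%. Most of that sum was Aqp2, with means of 203 FPKM (WT) and 313 FPKM (KO), while Aqp3 had means of 74.7 and 71.3 FPKM. The urothelial sum was highest in KO replicate 1 (Ccl28 at 6.9 FPKM) and second highest of the 8 in KO replicate 4, the lowest KO mouse for Ccl28. KO replicate 2 was the highest of the 8 for Ccl28 and for the collecting duct sum. The part of these markers in the Ccl28 values was not tested.

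Ccl27a, the other ligand of Ccr10, was at 9.41, 8.95, 9.77 and 8.69 FPKM in WT and at 8.14, 9.93, 8.99 and 7.29 FPKM in KO, with overlap and a log2 fold change of -0.08 ± 0.11 (SE, limma adjusted p = 0.9). Ccl27a lies opposite Il11ra1 and shares exon bases with it, and its copy Ccl27b was at 0 in every mouse, so reads may be split or shared among them and the level is uncertain. Ccr10 was low, at 0.219 to 0.454 FPKM over the 8 mice. Ccl25, which guides thymocytes and gut lymphocytes through Ccr9, was at 4.05, 4.09, 4.55 and 4.25 FPKM in WT and at 4.79, 4.02, 3.57 and 2.53 FPKM in KO, with overlap. It shares exon bases with Elavl1 on the opposite strand. Ccr9 was under 0.13 FPKM in every mouse.

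Ccl19 and Ccl21a draw T cells and dendritic cells into lymphoid tissue through Ccr7. Ccl21a, made by lymphatic endothelium, was at 3.17, 3.91, 3.35 and 3.33 FPKM in WT and at 3.15, 2.44, 3.37 and 3.74 FPKM in KO. Ccl19 was at 1.34, 2.37, 2.09 and 1.59 FPKM in WT and at 1.81, 1.48, 1.12 and 2.4 FPKM in KO. Neither separated the groups. They lie in a stretch of chromosome 4 from 41769467 to 42773993 that holds 7 of the 62 genes, copies and pseudogenes included.

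The pseudogene Ccl19-ps1 was at 2.56, 1.82, 1.11 and 1.5 FPKM in WT and at 1.88, 1.16, 1.49 and 2.91 FPKM in KO. Ccl21b was above 0 in KO replicate 4 alone, at 0.249 FPKM. How reads were divided among such near-identical copies is not given in the sources used here, so these levels are uncertain. The receptor Ccr7 was at 0.324, 0.437, 0.316 and 0.174 FPKM in WT and at 0.537, 0.44, 0.411 and 0.81 FPKM in KO. KO replicate 4 was the highest and KO replicate 3 was inside the WT range. Its level was below the floor, so it was not tested.

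The remaining ligand and receptor pairs were near the limit of detection. Xcl1, made by T and NK cells, was at 0.0943, 0.516, 0 and 0.188 FPKM in WT and at 0.107, 0.208, 0.104 and 0.0958 FPKM in KO, with 0 to 5 reads in any mouse, and shares exon bases with Gm20743 on the opposite strand. Its receptor Xcr1, carried by cross-presenting dendritic cells, was at 0.113 to 0.304 FPKM, with the highest value in KO replicate 4. Of the other atypical receptors, Ackr2 was at 0.121 to 0.342 FPKM and Ackr4 at 0.0402 to 0.269 FPKM. Ackr1 had a mean under 0.1 FPKM, with 0 in the 4 WT mice and in KO replicate 2.

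The other genes of the pathway came from lists of names. Of 20 inducers and feedback genes 13 were tested by limma, with 0 higher, 0 lower and 3 at an unadjusted p under 0.05, for which the share of all genes was 6.14% here and in the lists that follow. The 2 with the lowest p were Cebpb, with a mean of 11.2 FPKM in WT against 27.4 in KO (limma adjusted p = 0.67), and the alarmin Il33, 3.59 against 2.48 FPKM (limma adjusted p = 0.69). Of the receptor signalling genes 15 were tested by limma and 0 passed. Arrb2, an arrestin that carries activated receptors into the cell, had means of 7.44 FPKM (WT) and 9.02 FPKM (KO; limma adjusted p = 0.72), and Pik3r5, a regulator of the lipid kinase below these receptors, at 0.453 and 0.618 FPKM (limma adjusted p = 0.86). Their list had 1 gene at an unadjusted p under 0.05.

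Of 11 tested genes that cut chemokines or display them on heparan sulfate, 0 passed and 0 had an unadjusted p under 0.05 by limma. Ndst1, an enzyme of heparan sulfate synthesis, had means of 33.5 FPKM (WT) and 27 FPKM (KO; limma adjusted p = 0.86), with 30.1 to 36 FPKM in 7 mice and 9.98 FPKM in KO replicate 2. Dpp4, the peptidase that trims Cxcl12 and Cxcl10, was at 13.4 and 12.3 FPKM (limma adjusted p = 0.87). Of 10 tested chemokine-like ligands and receptors outside the naming rule 0 passed by limma, with 1 at an unadjusted p under 0.05. Il34, a macrophage growth factor, had means of 15.9 ± 1.59 FPKM (WT) and 21.6 ± 2.79 FPKM (KO; SD, n = 4 each; limma adjusted p = 0.55). Cd74, the invariant chain and a receptor of Mif, was at 222 and 312 FPKM (limma adjusted p = 0.87), with 614 FPKM in KO replicate 4. The platelet chemokine genes Pf4 and Ppbp, which the rule does not name, were at 1.02 and 0.464 FPKM in WT and at 0.891 and 0.387 in KO.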

How the data were processed

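The deposited table holds 1 value per gene and mouse, and its header names no unit. The values were read as FPKM computed by the authors, since column totals differed and small values were multiples of a gene-specific step. The submitters' processing notes name build mm10 and the tools STAR 2.5, HTSeq 0.6.1, CASAVA and DESeq2. What each tool did, the annotation release and the strand setting are not given in those notes. Library totals and gene lengths were fitted to these steps, which gave whole reads within 0.002 for 22939 of 22945 genes above 0, and for 0 of 300 control genes with the totals shifted by up to 0.1%. For a gene above 0 in fewer than 4 libraries the number of reads is uncertain. Read numbers show counting error only, and whether PCR copies were marked or removed is not known here.

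Limma 3.58.1 in R 4.3.3 (statmod 1.5.0) was run on log2 values of scaled FPKM plus 1, for genes with a mean of at least 0.5, with trend and robust moderation and Benjamini-Hochberg adjustment at 0.05. FPKM were scaled by TMM factors (trimmed mean of M values) from the recovered reads. Printed FPKM are as deposited. Fold changes are on the log2(FPKM + 1) scale, which understates low genes. In 5 simulated sets of 13604 genes for KO against WT, 86.7% of 2-fold changes below 5 FPKM were recovered, and 7.54% of calls were false. Those sets had no library that stood apart. They also gave every gene the same spread between mice, taken from WT genes with many reads. The recovery therefore does not hold for genes that vary more between mice. The 62 genes and the lists were chosen with earlier results of these data known. The rule named every gene at or above 0.5 FPKM in the mean or in a mouse, and the 2 tested genes of each pathway list with the lowest p; other genes with values were chosen after these were seen, and 1 gene under the rule is counted but not reported here. Positions are from GENCODE M21 (mm10), which matched all 62 genes. Mice of 1 group are separate animals, and no label pairs KO with WT mice. Alternatives covered floors, pseudocount, scaling, array weights, limma-voom and leaving out mice.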

Additional observations from a re-analysis of the deposited data

Results flagged for a closer look

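In 33 genes that reached 0.5 FPKM in some mouse, 66 groups of 4 were looked at for a mouse far from the other 3, and 9 had one. The rule is set to flag about 1 in 20 groups of unselected values, or 3.3. Genes here could enter through their highest mouse alone, as Cxcl2 did, and several had few reads. The 9 can therefore not be read as more than chance gives. KO replicates 2 and 4 held 3 each. In KO replicate 2 these were Cxcl1 at 27.4 FPKM (other KO mice 0.285 to 0.999), Cxcl2 at 1.08 (0 to 0.0951) and Xcl1 at 0.208 (0.0958 to 0.107). In KO replicate 4 they were Cxcl9 at 4.71 FPKM (other KO mice 0.523 to 0.767), Ccl8 at 1.37 (0.425 to 0.532) and Ccl7 at 0.688 (0.14 to 0.204). The other 3 were in WT mice: Ccl2 was at 0.945 FPKM in WT replicate 1 (others 0.493 to 0.538), Ccr2 at 0.532 in WT replicate 4 (0.865 to 0.886) and Ccl12 at 0.484 in WT replicate 3 (0.0915 to 0.101). Xcl1, Ccl7, Ccl8, Ccl12 and Cxcl2 rest on 21 reads or fewer in any mouse.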

How the results depend on the processing

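In each of the 16 alternatives run, 0 of the chemokine and receptor genes passed in either direction by limma; the lowest adjusted p was 0.15, for Ccl2 with array weights. With no filter 58 were tested, 9 at an unadjusted p under 0.05, beside 5.57% of all genes.

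Over all genes, where 2 were higher and 3 lower, array weights (0.11 for KO replicate 2) gave 23 higher and 27 lower, and leaving out KO replicates 2 and 4 gave 6 and 12. Leaving out 1 mouse gave 2 to 18 higher (18 without KO replicate 3, 4 without WT replicate 2 or KO replicate 2) and 1 to 8 lower (8 without KO replicate 2, 1 without WT replicate 1 or 3). The 1 gene without overlap (5.18% of all genes) became 3 on scaled values (5.09%), 4 without KO replicates 2 and 4 (17.8%), and 1 to 4 with 1 mouse left out (7.47% to 10.8%). It was 4 without KO replicate 1 (9.46%), and 2 without WT replicate 1 (8.28%) or 4 (8.04%) or KO replicate 2 (10.8%) or 4 (8.5%). The causes were not tested, except that fewer mice overlap less often by construction.

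Of 349 fold change values of 22 genes under alternatives, 21 had the other sign, in 10 genes. Without KO replicates 2 and 4 these were Cxcl10 at -0.18, Cxcl1 at -0.16, Cxcl9 at -0.01, Ccl19-ps1 at -0.01 and Cx3cl1 at 0.02, and Cx3cl1 was at 0.07 with array weights. With 1 mouse left out the ranges of those that turned were -0.11 to 0.09 (Cx3cl1), -0.14 to 0.05 (Cxcl16), -0.4 to 0.1 (Ccl5), -0.09 to 0.18 (Ccl19-ps1), -0.01 to 0.1 (Ccl6), -0.18 to 0.04 (Ccl19) and -0.25 to 0.05 (Cxcl13). Left-out mice moved Cxcl1 between 0.05 and 1.57 and Cxcl9 between 0.07 and 0.7. No paired analysis was possible because the labels give no number, litter or day that KO and WT mice share.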
